A study of Homo sapiens with 4 samples.

Results

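Narrow TEAD1 sites shared with YAP are stretches of the genome where a TEAD1 peak and a YAP peak coincide in H69 cells, and where both peaks are short and no wide peak is near. A TEAD1 peak was counted when it lay on chromosomes 1 to 22, was narrower than 1000 bp, overlapped by at least 1 bp a YAP peak that was also narrower than 1000 bp, and lay more than 50 kb from every peak of 1000 bp or wider in any list. The rule was met by 1150 of the 48962 TEAD1 peaks. The sites were thus chosen by 3 measured values, the overlap with YAP, the width and the distance to wide peaks, and these are described here and not tested.

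YAP activates transcription at the end of the Hippo pathway but has no DNA-binding domain. Hippo kinases phosphorylate it and keep it in the cytoplasm, and unphosphorylated YAP enters the nucleus and reaches DNA mainly through the TEAD proteins, which recognise a short sequence motif. Many sites bound by YAP and TEAD lie in enhancers far from gene starts.

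Each library came from H69, a human cell line, by chromatin immunoprecipitation and sequencing (ChIP-seq) of formaldehyde-fixed, sonicated chromatin. The labels give only the name H69, which is known for an immortalised bile duct epithelial line, and no treatment or genotype; bile duct markers were not checked, since peak lists hold no expression values. The labels of the series list 4 samples: an unrelated IgG, YAP with an antibody named Santa Cruz, YAP with an antibody that the design text calls Avruch, and TEAD, which the design text calls TEAD1. Peak lists of the last 3 were analysed, and the IgG library was not analysed here. Each antibody has 1 library and no replicate, so no test between antibodies or conditions was possible, and every difference below is a difference between lists of these libraries. Wilson 95% intervals of shares and exact binomial 95% intervals of medians cover counting error over peaks only, and neighbouring peaks are not independent.

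Of the 46973 TEAD1 peaks on chromosomes 1 to 22, 46548 were narrower than 1000 bp and 1374 of these overlapped a narrow YAP peak. Of these, 224 lay within 50 kb of a wide peak and were left out, which gave the 1150 sites. The same limits without the overlap were met by 45068 TEAD1 peaks, so 2.55% of the narrow TEAD1 sites away from wide peaks were shared with YAP by this rule. The other 43918 are called TEAD1 sites without YAP here. They are sites where no narrow YAP peak was called, which at an unknown read depth is not absence of YAP.

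The Avruch antibody accounted for most of the shared sites. An Avruch peak was found at 1000 of them (2.22% of the 45068 sites) and a Santa Cruz peak at 215 (0.477%). Avruch alone gave 935 sites, Santa Cruz alone gave 150, and 65 sites (0.144%) had a peak of both antibodies. The Avruch list is longer than the Santa Cruz list (10118 against 2471 peaks), and depth is not given in the lists.

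The YAP peak lay close to the middle of the TEAD1 peak. The median distance between the 2 centres was 51.5 bp for the 1013 pairs of overlapping TEAD1 and Avruch peaks (95% interval 48.0 to 55.5, quartiles 24.5 and 98.0). For the 218 pairs with Santa Cruz it was 65.3 bp (51.5 to 78.0, quartiles 32.9 and 118). Peaks of the widths found here would still overlap with their centres up to a median of 218 bp (Avruch) or 256 bp (Santa Cruz) apart. In 52.9% of the Avruch pairs the centres were within the nearest 25% of that reach, and in 7.11% within the farthest 25%. The shares for Santa Cruz were 49.1% and 4.13%. Peaks placed evenly over that reach would give equal shares, and both antibodies showed more pairs near the middle.

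Most YAP peaks were nested in the TEAD1 peak. Of the Avruch pairs, 615 (60.7%, 57.7 to 63.7) had the YAP peak wholly inside, 12 had the TEAD1 peak inside a wider YAP peak, and 386 overlapped in part. Of the Santa Cruz pairs, 125 (57.3%, 50.7 to 63.7) had the YAP peak wholly inside, 3 the reverse, and 90 overlapped in part. Nesting depends on width: the median width was 288 bp at shared TEAD1 sites, 148 bp for the Avruch peaks and 163 bp for the Santa Cruz peaks on them. The overlap had a median of 139 bp in Avruch pairs and 156 bp in Santa Cruz pairs, with a smallest value of 4 and 8 bp. At 490 of the 1150 sites it covered at least 50% of both peaks. Several Avruch peaks touched 1 TEAD1 site at 13 sites, and several Santa Cruz peaks at 3.

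YAP peak centres around all 45068 narrow TEAD1 sites were counted by distance, the sites without YAP included. A YAP centre was counted once for each TEAD1 site within 5 kb, so the counts are of pairs of centres. Within 100 bp of a TEAD1 centre there were 767 Avruch centres, from 100 to 200 bp there were 192, and from 200 to 300 bp there were 109. From 2 to 5 kb, the bins of 100 bp held 46 to 80 centres, with a median of 60. The first bin thus held 12.8 times that median. For Santa Cruz the first 3 bins held 149, 52 and 39 centres, and the bins from 2 to 5 kb held 10 to 21 with a median of 14, a ratio of 10.6. In some windows of 200 kb narrow peaks of a YAP list are crowded, with more than 5 in a window, and these dense windows are also left out below as a comparison. The ratios without them were 16.0 (Avruch) and 12 (Santa Cruz). The first bins are largely the overlap that chose the sites. The counts at 400 to 500 bp, which few overlaps reach, were 106 for Avruch and 29 for Santa Cruz, above the highest bin from 2 to 5 kb in both lists, also without dense windows (75 against 56 and 22 against 17).

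**Figure D1:**
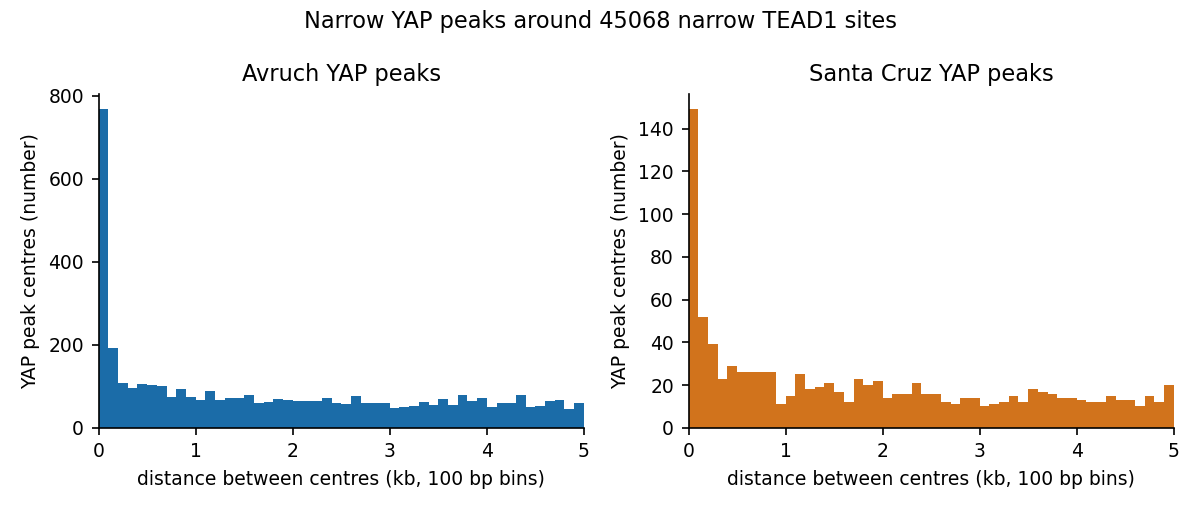
Number of narrow YAP peak centres (vertical axis) by distance from the centres of the 45068 narrow TEAD1 sites (horizontal axis, kb, bins of 100 bp), for Avruch (left) and Santa Cruz (right). The first bin holds 767 and 149 centres, and the bins beyond 2 kb hold at most 80 and 21. A YAP centre counts once for each TEAD1 site within 5 kb.

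TEAD1 scores at shared sites were a little higher than at sites without YAP, and were highest where both antibodies found YAP. The score is the authors' value for each peak, has no stated unit, begins at 50 and is compared only within a list. A ratio of its medians describes the scores and is not a ratio of binding strength. The median TEAD1 score was 74.5 at shared sites (95% interval 72.3 to 76.2) and 66.2 at sites without YAP (66.0 to 66.6), a ratio of 1.12. At the 490 sites where the overlap covered at least 50% of both peaks the ratio was 1.01 (0.988 to 1.05), an interval that includes 1. That ratio is to all other narrow sites, those with a smaller YAP overlap included. The 50% limit by construction drops sites whose YAP peak is much the narrower, and wider TEAD1 sites had higher scores. The median was 72.5 where Avruch alone found YAP (70.8 to 74.7), 79.8 where Santa Cruz alone did (70.6 to 91.1) and 119.6 where both did (102.4 to 140.5). The ratios to sites without YAP were 1.09, 1.20 and 1.80. The ranges overlapped widely: shared sites ran from 50.01 to 3100 and sites without YAP from 50 to 3139.81.

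**Figure D2:**
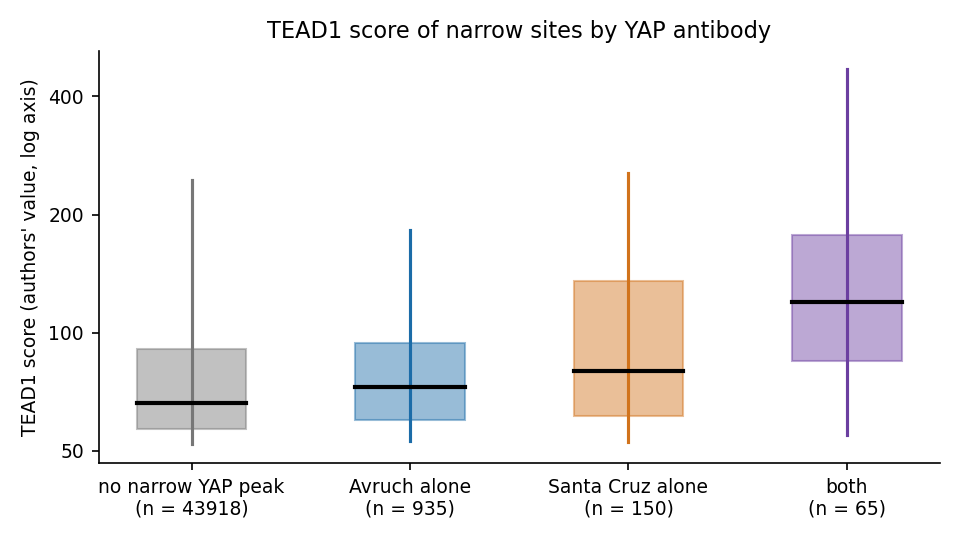
TEAD1 score (vertical axis, log scale, the authors' value with no stated unit) of narrow TEAD1 sites by the antibody that found YAP there. Boxes span the quartiles, black lines are medians (66.2, 72.5, 79.8 and 119.6 from left to right) and vertical lines run from the 5th to the 95th percentile.

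The upper end of the TEAD1 scores differed between the antibodies. The 95th percentile was 246 at sites without YAP and 213 at shared sites, of which it was 182 for Avruch alone, 256 for Santa Cruz alone and 469 for both. Of the 65 sites of both antibodies, 42 (64.6%, 52.5 to 75.1) were in the top 20% of all narrow TEAD1 sites, with scores from 102.08. For Santa Cruz alone the top 20% held 54 of 150 sites (36.0%, 28.8 to 43.9), and for Avruch alone 188 of 935 (20.1%, 17.7 to 22.8), which an even spread would also give. Sites of Avruch alone were most frequent in the next 20%, scores 73.14 to 102.07, with 274 of 935 (29.3%, 26.5 to 32.3).

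Width moved with the score. The median width was 288 bp at shared sites and 271 bp at sites without YAP, and it reached 363 bp at sites of both antibodies. The order of the first 2 widths turned under 2 other settings: the ratio of 1.06 was 0.934 with an overlap of 50% of both peaks and 0.953 with the 50% of peaks of each list with the highest scores. Each was taken against the sites not shared under the same setting. Within classes of equal width the score ratio was not constant. It was 1.09 below 200 bp, 1.03 from 200 to under 250 bp, 1.07 from 250 to under 300 bp and 1.01 from 300 to under 400 bp. Among sites of 400 to under 500 bp the shared ones had the lower median, 102.4 against 126.8 (ratio 0.807, 95 shared sites). Among sites of 500 to under 1000 bp the medians were 168 and 219 (ratio 0.765, 134 shared sites). The share of sites with YAP did not rise steadily with width. It was 3.02% below 200 bp (2.42 to 3.77), 1.86% from 200 to under 250 bp (1.66 to 2.10), 2.60%, 2.83% and 2.40% in the next 3 classes, and 4.64% from 500 to under 1000 bp (3.93 to 5.46).

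The antibodies differed in where along the TEAD1 score their sites lay. In 20 bins of equal size, Avruch sharing was lowest in bin 3 (0.799%, 0.506 to 1.26), highest in bin 17, scores 102.08 to 120.45 (3.86%, 3.14 to 4.74), and down to 1.60% (1.16 to 2.20) in bin 20. The interval of bin 20 overlapped that of bin 1, where 1.51% were shared (1.08 to 2.10). Santa Cruz sharing stayed below 0.58% through bin 16, reached 1.24% (0.861 to 1.79) in bin 18 and 1.29% (0.898 to 1.84) in bin 19, and was 0.888% (0.575 to 1.37) in bin 20. The fall from bin 17 to bin 20 in the Avruch list was larger than its counting error, and the fall from bin 19 to bin 20 in the Santa Cruz list was not. The median TEAD1 width was 367 bp in bin 17 and 514 bp in bin 20. As near a wide peak, the rule had left out 224 of 1374 overlapping narrow TEAD1 peaks and 1480 of all 46548 narrow ones. How this removal fell along the TEAD1 score, and its part in the fall to bin 20, was not tested.

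**Figure D3:**
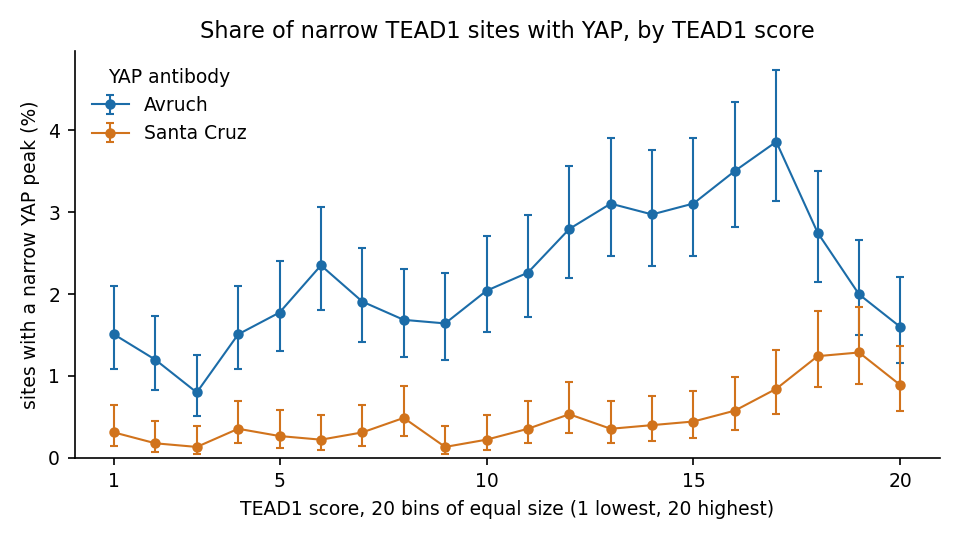
Share of the 45068 narrow TEAD1 sites with a narrow YAP peak (vertical axis, percent, with Wilson 95% intervals as bars) over 20 bins of TEAD1 score (horizontal axis). Avruch peaks at 3.86% in bin 17 and ends at 1.60%, and Santa Cruz stays at or below 1.29%.

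Seen from the YAP lists, stronger YAP peaks lay on TEAD1 sites more often. On chromosomes 1 to 22 and away from wide peaks there were 7989 narrow Avruch peaks, of which 1005 (12.6%) overlapped a narrow TEAD1 peak, and 1589 narrow Santa Cruz peaks, of which 217 (13.7%) did. The rule fixes these totals but not how they fall along the YAP score. In the lowest of 10 equal bins of Avruch score 9.51% lay on TEAD1 (7.67 to 11.7), and the share stayed between 9.51% and 11.4% through bin 7. It was 13.4% in bin 8, 16.1% in bin 9 and 23.7% in bin 10 (20.9 to 26.8). In the Santa Cruz list the share lay between 5.03% and 13.2% through bin 7 and was 14.5% in bin 8, 17.6% in bin 9 and 35.4% in bin 10 (28.4 to 43.2). The highest bin was also wider, with a median of 188 bp against 147 bp in the lowest Avruch bin and 191 bp against 159 bp for Santa Cruz. The part of width in this was not tested.

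**Figure D4:**
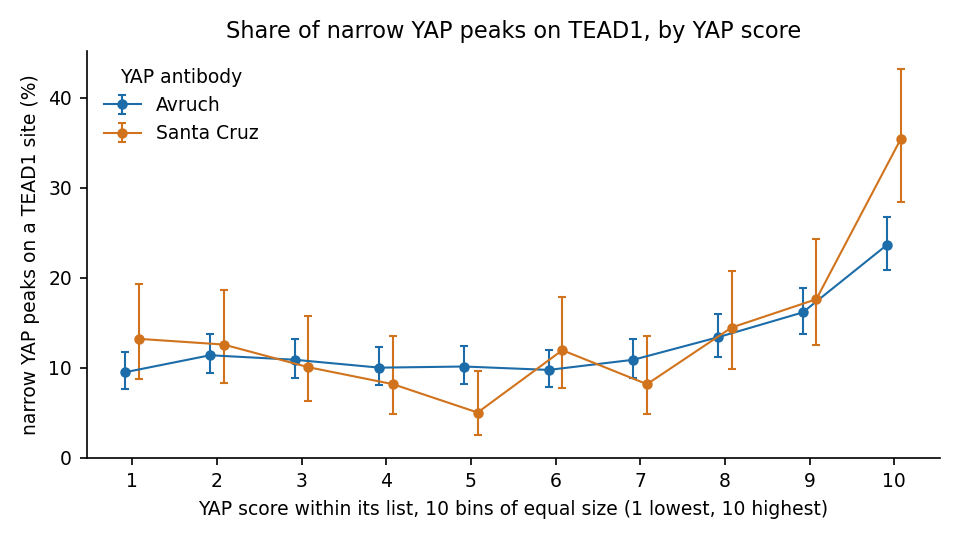
Share of narrow YAP peaks that overlap a narrow TEAD1 site (vertical axis, percent, Wilson 95% intervals) over 10 bins of YAP score within each list (horizontal axis). The share stays at or below 13.2% through bin 7 and reaches 23.7% for Avruch and 35.4% for Santa Cruz in the highest bin.

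The median Avruch score was 65.5 on shared sites (64.3 to 66.1) and 62.3 at Avruch peaks off TEAD1 (62.1 to 62.5). The median Santa Cruz score was 60.6 on shared sites (59.0 to 64.7) and 57.0 off TEAD1 (56.8 to 57.3). At the sites of both antibodies the Avruch median was 75.6 (66.9 to 86.4), against 65.0 at sites of Avruch alone. The Santa Cruz median there was 66.1 (59.6 to 73.5), against 59.1 at sites of Santa Cruz alone (58.2 to 63.7), and these intervals overlapped. Across pairs, YAP and TEAD1 scores were only loosely related: Spearman's rho was 0.129 over 1013 Avruch pairs and 0.200 over 218 Santa Cruz pairs. These are descriptions across sites of the same libraries.

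A YAP peak on a TEAD1 site was found by the other antibody more often than a YAP peak elsewhere. Which antibodies found a site was not part of the rule, since 1 was enough. Of the narrow Avruch peaks on TEAD1, 66 of 1005 (6.57%, 5.20 to 8.27) overlapped a narrow Santa Cruz peak, and of those off TEAD1, 42 of 6984 did (0.601%, 0.445 to 0.812). Of the narrow Santa Cruz peaks on TEAD1, 66 of 217 (30.4%, 24.7 to 36.8) overlapped a narrow Avruch peak, and of those off TEAD1, 40 of 1372 did (2.92%, 2.15 to 3.95). Outside dense windows the Avruch shares were 5.88% (53 of 901) and 0.296% (19 of 6427), and the Santa Cruz shares 27.6% (53 of 192) and 1.46% (19 of 1303). YAP peaks on TEAD1 had the higher scores given above, with median widths of 148 against 147 bp (Avruch) and 163 against 157 bp (Santa Cruz). Their upper quartiles of width differed more, 177 against 160 bp (Avruch) and 199 against 169 bp (Santa Cruz). At sites of both antibodies the median widths were 168 bp (Avruch) and 177 bp (Santa Cruz). The part of score and width in the overlap between antibodies was not tested. Counted by TEAD1 site, 65 of the 1000 Avruch sites (6.50%) had a Santa Cruz peak. That share was 10.3% (8.67 to 12.1) with no distance kept from wide peaks. It was 4.95% (3.26 to 7.45) with an overlap of 50% of both peaks and 4.93% (3.69 to 6.55) with a width limit of 500 bp. The use of the IgG library, or of any other control, in calling the lists is not given in the sources used here.

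At all 65 sites with both antibodies the 2 YAP peaks overlapped each other, not only the TEAD1 peak. The median distance between the Avruch and Santa Cruz centres was 29 bp (24 to 45). The median distance from the TEAD1 centre was 33.5 bp for Avruch (26.5 to 63.0) and 44.0 bp for Santa Cruz (34.5 to 66.0) at these sites. The distance between the YAP centres was smaller than both distances to TEAD1 at 29 of the 65 sites. Where a site had several peaks of an antibody, the Avruch and Santa Cruz peaks with the nearest centres were taken. The values that unrelated positions within the TEAD1 peak would give were not tested.

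The shared site with the highest TEAD1 score was on chromosome 14 (hg19, 62221782 to 62222495, 714 bp). Its TEAD1 score of 3100 tied with others for rank 4 of all TEAD1 peaks, its Avruch score of 480.26 was the highest of any shared site, and the 2 centres were 9 bp apart. No narrow Santa Cruz peak overlapped it. The next site, on chromosome 10 (47152496 to 47153106), had a TEAD1 score of 2982.74 and an Avruch score of only 61.55, with centres 180.5 bp apart.

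From the third site on, TEAD1 scores were far lower. They were 784.56 on chromosome 1 (155160927 to 155161900, Santa Cruz score 51.41), 764.07 on chromosome 2 (109815710 to 109816484, Avruch score 100.26) and 741.14 on chromosome 12 (1583326 to 1583726, Santa Cruz score 52.11). The sixth, on chromosome 15 (58761940 to 58762627), had a TEAD1 score of 690.18 and an Avruch score of 60.01. The remaining 4 of the top 10 had TEAD1 scores from 531.64 to 652.61. They lay on chromosomes 5, 1, 17 and 20. Of these 10 sites, those on chromosomes 5 and 20 had both antibodies.

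The strongest TEAD1 site with both antibodies was on chromosome 5 (209171 to 209940). Its TEAD1 score was 652.61, its Avruch score 153.92 and its Santa Cruz score 53.56. The next was on chromosome 20 (26188649 to 26189450), with scores of 531.64, 67.2 and 115.6 in the same order. Both lay in dense windows. The next 3 did not: chromosome 19 (3649103 to 3650035) had TEAD1, Avruch and Santa Cruz scores of 530, 146.43 and 51.76. Chromosome 11 (134709214 to 134709873) had 469.41, 87.55 and 55.63, and chromosome 16 (1075201 to 1075726) had 465.79, 59.12 and 80.19. The other 5 of the 10 highest had TEAD1 scores from 248.43 to 455.82. The order by TEAD1 score was not the order by either YAP score.

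The shared sites with the strongest YAP peaks had TEAD1 scores from 73.94 to 3100. After the chromosome 14 site, the highest Avruch scores were 319.35 on chromosome 21 (47604376 to 47604803, TEAD1 score 96.65), 270.03 on chromosome 4 (60384700 to 60385214, TEAD1 score 222.18) and 260.88 on chromosome 5 (14347121 to 14347505, TEAD1 score 96.77). The fifth was 244.98 on chromosome 1 (3499695 to 3500609, TEAD1 score 528.87). The highest Santa Cruz score, 281.96, was on chromosome 1 (11889557 to 11889773), where the Avruch score was 206.22 and the TEAD1 score 122.04. The Avruch centre was 7.5 bp and the Santa Cruz centre 20.5 bp from the TEAD1 centre there, in a TEAD1 peak of 217 bp. Of the 5 sites with the highest Santa Cruz scores, 4 also had an Avruch peak. The genes at these sites were not analysed, because no annotation of build hg19 was used here, and no sequence is shown for the same reason.

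Of the 1150 shared sites, 1043 (90.7%, 88.9 to 92.2) had no other shared site within 10 kb. A further 54 formed 27 pairs, and 53 lay in 10 runs of 3 to 9. Only 2.55% of narrow TEAD1 sites were shared, and 46.1% of shared sites had any further TEAD1 peak within 10 kb. With sharing this rare, a high share without a shared neighbour does not show that shared sites lie apart from each other. The share that an even scatter of sharing would give was not tested, so 90.7% cannot be called high or low against it. All 10 runs lay in dense windows, as defined above. The largest run had 9 sites over 9.45 kb on chromosome 14 (105695897 to 105705349), all of the Avruch antibody. Of the 10 runs, 6 were on chromosome 5, with 5 of them between positions 68928188 and 70529290. A run of 4 sites on chromosome 1 (2687299 to 2693766) had both antibodies at every site.

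Dense windows held 113 of the 1150 shared sites (9.83%, 8.24 to 11.7) and 752 of the 43918 sites without YAP (1.71%, 1.60 to 1.84). As they are drawn from the YAP lists, sharing in them is high by construction: 13.1% of the sites inside were shared, and 2.35% outside. Chromosome 5 held 36 of the 113. Without these windows 1037 shared sites were left, with a median TEAD1 score of 73.9, 1.12 times that of sites without YAP. The ratio for both antibodies was then 1.69 over 52 sites.

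Shared sites of the 2 antibodies differed in their TEAD1 neighbours. A further TEAD1 peak lay within 10 kb of 49.5% of the sites without YAP (49.1 to 50.01), of 42.9% of sites of Avruch alone (39.8 to 46.1) and of 65.3% of sites of Santa Cruz alone (57.4 to 72.5). For sites of both antibodies the share was 47.7% (36.0 to 59.6). Without dense windows the shares were 49.0%, 37.8%, 64.5% and 34.6%, in the same order. Over all shared sites the share was 46.1% (43.2 to 49.0).

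Santa Cruz sites were also frequent near the ends of the mapped chromosomes, a comparison added after the sites had been seen. The distance was taken to the outermost peak of any list on the same chromosome, which on the acrocentric chromosomes 13, 14, 15, 21 and 22 is not the end of the short arm. Within 3 Mb lay 10.0% of the sites without YAP (9.75 to 10.3), 11.9% of sites of Avruch alone (9.95 to 14.1), 26.7% of sites of Santa Cruz alone (20.2 to 34.3) and 33.8% of sites of both (23.5 to 46.0). Of all narrow TEAD1 sites within 3 Mb, 1.35% (62 of 4577, 1.06 to 1.73) had a Santa Cruz peak, against 0.378% (153 of 40491, 0.323 to 0.443) elsewhere, a ratio of 3.58. The ratio stayed between 3.26 and 3.74 with any 1 chromosome left out. It was 3.81 without dense windows and 3.65 without the acrocentric chromosomes. For Avruch the ratio was 1.36. It was 1.21 without dense windows and 1.14 without the acrocentric chromosomes, and in both settings the intervals of the 2 shares overlapped.

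**Figure D5:**
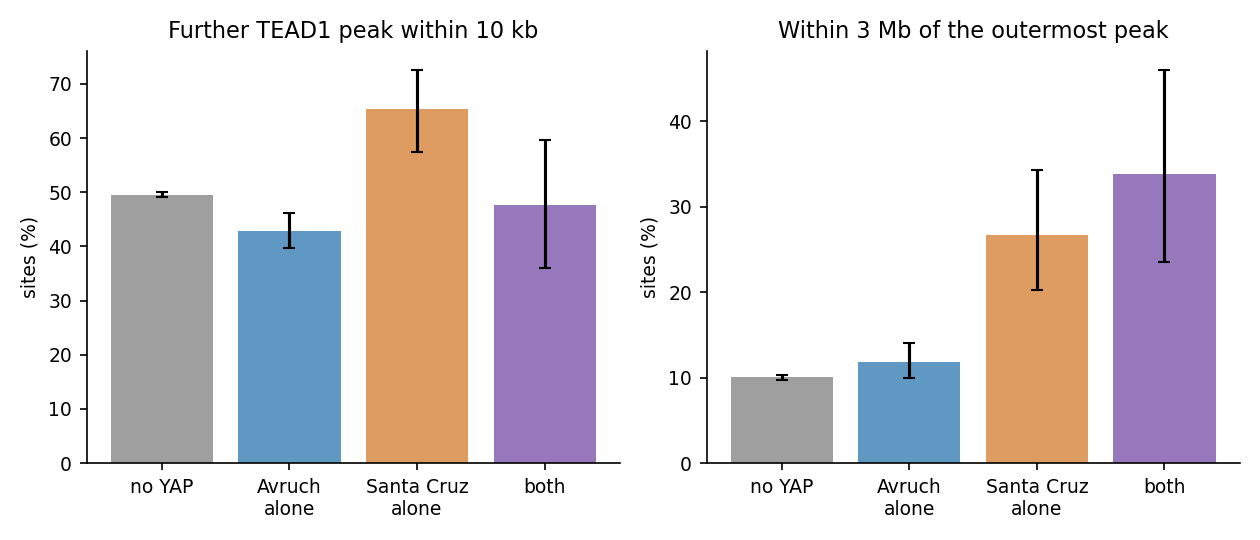
Percent of narrow TEAD1 sites (vertical axes, Wilson 95% intervals as bars) with a further TEAD1 peak within 10 kb (left) and within 3 Mb of the outermost peak of their chromosome (right), by the antibody that found YAP. Sites of Santa Cruz alone reach 65.3% and 26.7%, against 49.5% and 10.0% for sites without YAP.

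TEAD1 peaks themselves were closer together near chromosome ends. A further TEAD1 peak within 10 kb was found at 70.2% of the sites without YAP there and at 47.2% of those elsewhere. For Santa Cruz alone the shares were 65.0% (26 of 40, 49.5 to 77.9) near ends and 65.5% (72 of 110, 56.2 to 73.7) elsewhere. For Avruch alone they were 69.4% (77 of 111) and 39.3% (324 of 824, 36.0 to 42.7), and for both antibodies 59.1% and 41.9%. Near ends the Santa Cruz interval held the shares of the other classes. Santa Cruz alone and Avruch alone thus differed in close TEAD1 neighbours only elsewhere. TEAD1 scores did not differ by position in the way that close TEAD1 neighbours did. Their median was 65.5 over all narrow TEAD1 sites within 3 Mb and 66.9 from 10 to 50 Mb. Narrow Santa Cruz peaks off TEAD1 were within 3 Mb in 10.9% of cases (9.39 to 12.7), and those on TEAD1 in 29.5% (23.8 to 35.9). Narrow Avruch peaks off TEAD1 were there in 7.49% of cases (6.89 to 8.13), and those on TEAD1 in 13.6% (11.6 to 15.9). Base composition and gene density were not analysed here.

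Shared sites were found on each of chromosomes 1 to 22. The share of narrow TEAD1 sites with YAP ran from 1.70% on chromosome 19 (41 of 2418, 1.25 to 2.29) and 1.75% on chromosome 17 (43 of 2453, 1.30 to 2.35) to 3.95% on chromosome 5 (99 of 2508, 3.25 to 4.78), with a median of 2.52%. Without dense windows chromosome 5 was at 2.68%, and the highest share was 3.26% on chromosome 21 (20 of 614). Chromosomes 17 and 19 were still among the lowest, at 1.62% and 1.67%.

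The sites at the width limit had TEAD1 scores well above the median of shared sites. The widest shared sites were 974, 970 and 961 bp wide, with TEAD1 scores of 784.56, 383.14 and 206.79, and the narrowest TEAD1 peaks left out by width were 1002, 1003 and 1003 bp wide, with scores of 268.15, 840.46 and 194.54. Of these last 3, only the one on chromosome 5 (784901 to 785903) overlapped a narrow YAP peak. The shared sites nearest to a wide peak were 54.2, 55.5 and 56.9 kb away. The overlapping TEAD1 peaks just left out were 49.2, 46.9 and 46.7 kb away.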

How the data were processed

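Peak lists of 3 ChIP-seq libraries (TEAD1, YAP Avruch, YAP Santa Cruz) were analysed as deposited (position, name and score per peak). Alignment was by Bowtie2 to hg19, per the submitters' processing notes. Peak names carry the name MACS; the version, the settings, any control and any filter are not stated in the labels or files. The score of each peak is the authors' deposited value with no stated unit, used only within its list. Read depth is unknown, so list lengths do not rank the antibodies.

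Sites were selected with Python 3.11.15, numpy 2.4.6 and pandas 2.3.3. Widths are end minus start, printed positions are 1-based, and gaps are between peak edges. The overlap functions were tested on simulated data. Intervals are Wilson's for shares (scipy 1.17.1) and exact binomial ones for medians.

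Named sites were those with the highest TEAD1 scores (10 of all, 10 with both antibodies), the highest YAP scores (5 per list) and those at the limits. The sites, lists and comparisons were chosen with earlier results of these data known. Dense windows, chromosome ends and score bins were among the choices made with values seen. The planned TEAD and AP-1 motifs, gene starts and gene lists were left out, since they need the sequence and genes of hg19, which were not used here.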

Additional observations from a re-analysis of the deposited data

How the results depend on the processing

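The number of shared sites, the score and width ratios, the centre distance and the shares with a further TEAD1 peak, near chromosome ends and with both antibodies were recomputed under other settings of the rule. The score and width ratios are each to the narrow sites not shared under the same setting. Other results were recomputed only without dense windows, or not at all, and no difference has a test. The number of shared sites (1150) was 490 with an overlap of 50% of both peaks, 426 with the 50% of peaks of each list with the highest scores, and 215 with the Santa Cruz list alone; it lay between 1000 and 1374 otherwise. The score ratio (1.12) was 1.01 with the 50% overlap, whose interval of 0.988 to 1.05 included 1, and 1.05 with the highest scores, 1.09 with a width limit of 500 bp, 1.16 with no distance kept from wide peaks and 1.38 with Santa Cruz alone. The width ratio (1.06) turned to 0.934 with the 50% overlap (which by construction drops sites whose YAP peak is much the narrower) and to 0.953 with the highest scores, where the cause was not tested; it was 1.03 without dense windows, 1.13 with no distance kept and 1.18 with Santa Cruz alone. The median distance to the nearest YAP centre (51.5 bp) was 34.5 bp with the 50% overlap, 48.0 bp with the 500 bp limit, 56.0 bp with no distance kept and 64.0 bp with Santa Cruz alone. The share with a further TEAD1 peak within 10 kb (46.1%) was 36.7% with the 50% overlap, 37.8% with the highest scores, where both lists are shorter, 41.2% without dense windows, 42.2% with the 500 bp limit, 43.2% with Avruch alone, 54.3% with no distance kept and 60% with Santa Cruz alone; it was 34.6% with gaps of 5 kb and 60.3% with 20 kb. No paired analysis was possible because each antibody has 1 library. Values without dense windows for other results, and the settings of the chromosome-end share, were added after seeing the data. Results on motifs and gene starts were planned and not run. Read depth is unknown and limits each count of shared sites.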

Other observations

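Short TEAD1 peaks with high scores carried YAP more often than other short sites, a class chosen after its values had been seen. Of the TEAD1 sites below 200 bp in the top 20% of TEAD1 scores, 9 of 35 had a narrow YAP peak (25.7%, Wilson 95% interval 14.2 to 42.1), against 3.02% of all sites below 200 bp. All 9 had an Avruch peak and 1 also had a Santa Cruz peak, on chromosome 19 (hg19, 57454234 to 57454406, 173 bp, TEAD1 score 177.16). None of the 35 lay in a dense window. With 9 sites the share is imprecise.

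The share of sites with Avruch differed with the number of TEAD1 peaks nearby, in no single direction. With no further TEAD1 peak within 50 kb, 3.06% of 6918 sites had an Avruch peak (2.68 to 3.50), and with 3 to 5 further peaks 1.55% of 13314 did (1.35 to 1.77). With 11 or more further peaks the share was 3.57% of 2522 sites (2.91 to 4.37), but it was 1.44% of 2160 (1.01 to 2.03) without dense windows, which are drawn from the YAP lists so that leaving them out lowers sharing by construction. The other 2 shares were then 3.05% and 1.45%. For Santa Cruz the shares were 0.318%, 0.443% and 1.11% (0.769 to 1.60), and the last was 0.694% (0.421 to 1.14) without dense windows. Of the sites with 11 or more further peaks, 41.6% lay within 3 Mb of the outermost peak of their chromosome, against 3.21% of those with none.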
